A study of Mus musculus with 2 samples.

Results

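Kruppel-like factors (KLFs) are zinc-finger transcription factors, and 10 of their genes were described in ATDC5 cells, a mouse chondrogenic cell line that forms cartilage-like nodules in culture. The genes were Klf2, Klf3, Klf4, Klf5, Klf6, Klf7, Klf9, Klf10, Klf13 and Klf15, taken by gene symbol from the array annotation, and they were 10 of 18193 genes measured. Every probe set annotated with exactly 1 symbol, equal to one of these names, was used, which gave 34 probe sets (groups of short probes that together read a transcript). The groups were CHX+Nell-1 and CHX+PBS, with 1 Affymetrix array each and no replicate. In the CHX+Nell-1 group, serum-starved cells were exposed for 30 min to 10 µg/ml of cycloheximide (CHX), which stops translation, before recombinant human Nell-1 was added at 100 ng/ml for another 30 min. In the CHX+PBS group, cells were starved and given the same CHX, and PBS took the place of Nell-1. No arm without CHX was analysed here, so both groups carry the effect of the blocked translation. Nell-1 is a secreted protein that promotes bone and cartilage formation, and the series set out to screen for primary response genes, whose change needs no newly made protein.

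All KLF proteins end in 3 C2H2 zinc fingers that bind GC-rich and CACCC sequences, while the rest of the protein differs and decides whether the factor activates or represses. Several KLF genes are themselves early response genes, since their transcripts are short-lived and are induced by serum, growth factors or stress without new protein synthesis. In cartilage and bone, KLF proteins are known as regulators of matrix and protease genes. Within the family, Klf2, Klf4, Klf5, Klf6 and Klf7 mostly encode activators, Klf3 encodes a repressor that recruits CtBP proteins, and Klf9, Klf10 and Klf13 encode factors that recruit the Sin3 corepressor. Klf15 encodes a glucocorticoid-responsive regulator of metabolism.

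With 1 array per group, each ratio compares 2 RNA samples, and no test, p-value or error between cultures can be given. Values are MAS5 signals in arbitrary units, which depend on the probes, so signals of different probe sets do not order the transcripts. Differences are log2 ratios, CHX+Nell-1 over CHX+PBS, and 1.5-fold, a log2 ratio of 0.58 either way, is the threshold the submitters name for their own filter. A probe set was called above the median signal when its mean over both arrays reached 64.3, the median of all 45037 non-control probe sets, and dim otherwise. As a yardstick for each ratio, a robust SD of the ratios was taken over the 1000 probe sets nearest in mean signal. Noise of the measurement and real differences both enter it, and it is not an error between cultures.

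Most markers of the labelled chondrogenic line were measured above the median signal, and most markers of other cell types were dim. Of 13 chondrogenic and mesenchymal markers, 11 were above the median signal, among them the cartilage collagen gene Col2a1 (1206 with CHX+Nell-1 and 909 with CHX+PBS) and the chondrocyte factor Sox9 (2577 with CHX+Nell-1 and 3375 with CHX+PBS). Matn1, encoding the cartilage matrix protein matrilin, and the stromal surface marker Thy1 were below it. None of 6 endothelial, 2 of 6 epithelial (Epcam and Krt5), 1 of 5 blood, 1 of 3 adipocyte and 1 of 4 muscle markers were above it. Epcam was counted through a probe set of a type that can cross-hybridise (1447899_x_at, mean signal 418). Its other probe set (1416579_a_at) had a mean signal of 10.4. The median signal is not a detection limit. Among the markers counted above it, the cartilage collagen gene Col9a1 had a mean signal of 76.2 and the adipocyte marker Fabp4 one of 70.3. Both were below the brightest probe set of olfactory receptor genes (77.4), which were taken as silent in these cells. Poly-A spike-ins, bacterial RNAs added before labelling, were lower on the CHX+Nell-1 array on all 24 probe sets, with a median log2 ratio of -0.49. Hybridisation spike-ins, added after labelling, were lower on all 18, with a median of -0.18. The 6 actin and GAPDH control probe sets had a median of -0.13. Whether the spike-in difference extends to KLF transcripts was not tested.

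None of the KLF genes reached the threshold by its brightest probe set, and Klf2 and Klf10 came nearest. Of the 10 genes, each represented by its brightest probe set, 0 reached 1.5-fold, while 32.1% of all 18193 genes did so by the same rule, and 12.1% of the 11600 genes above the median signal. The genes nearest to the threshold were Klf2, at 1.49-fold lower with Nell-1, and Klf10, at 1.39-fold higher. Over all 34 probe sets, 27 were above the median signal, and 1 of these 27 (3.70%), a Klf3 probe set, passed 1.5-fold and was lower with Nell-1. The background was 14.5% of the 22519 probe sets above the median signal, with 5.97% higher and 8.48% lower. Dimmer probe sets passed more often than bright ones. Among the 1000 probe sets nearest in signal to each of the 27, on average 9.08% passed. For the brightest probe sets of the 9 genes above the median signal that share was 5.08%. At shares this low, 0 of 9 and 1 of 27 are close to the background and do not set the KLF genes apart. RNA was taken from whole cultures, so fewer cells of a kind and less RNA per cell cannot be told apart.

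The 27 probe sets were split between the directions, with 15 ratios above 0 and 12 below, from -0.63 to 0.49. Their median was 0.02, against -0.03 for all probe sets above the median signal. The robust SD of similarly bright probe sets was reached or exceeded by 9 of 27 ratios (33.3%), close to the 31.9% of all probe sets above the median signal. By gene, Klf10, Klf7, Klf6, Klf9 and Klf4 had a brightest ratio above 0, and Klf2, Klf3, Klf5 and Klf13 one below. These 9 genes had a median of 0.02, against -0.03 for the 11600. With Klf15, which was dim on both arrays, the median of the 10 genes was -0.12, against -0.06 for all genes.

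**Figure D1:**
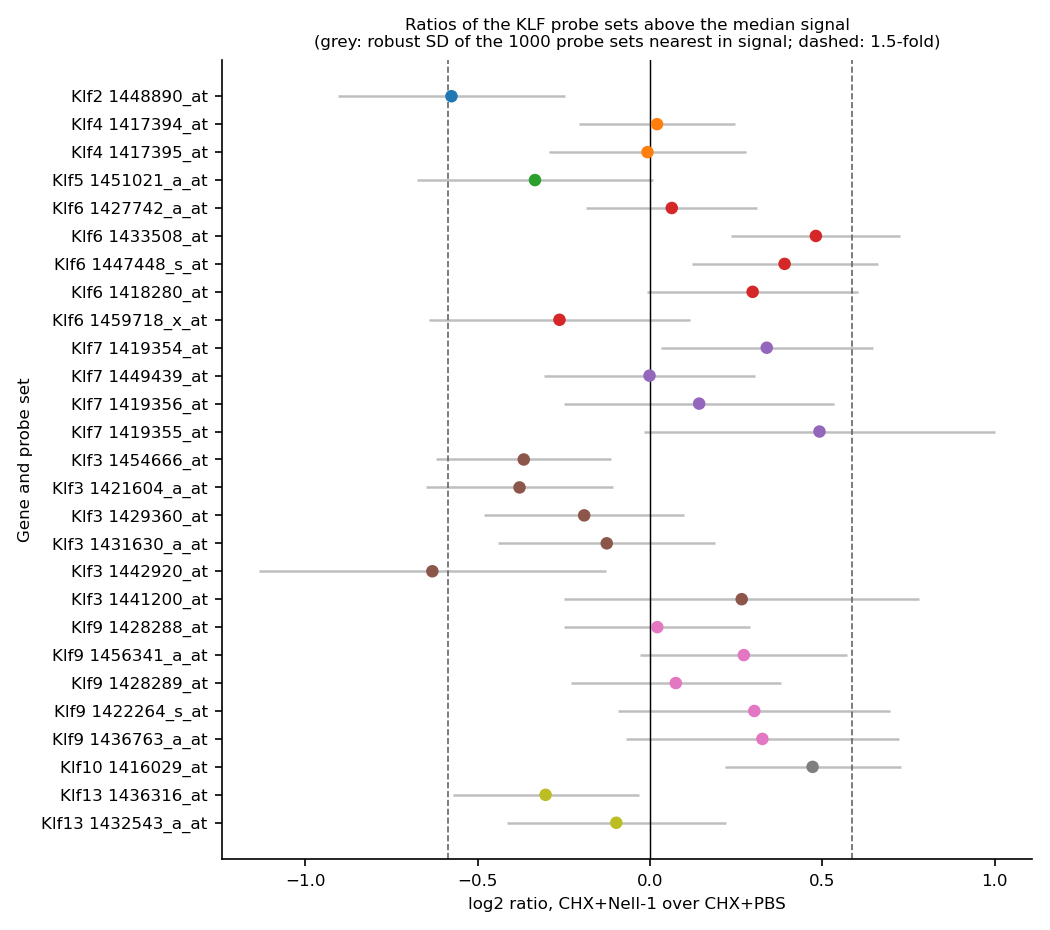
Log2 ratios of the 27 KLF probe sets above the median signal (horizontal axis, CHX+Nell-1 over CHX+PBS), by gene and probe set. Points are single ratios, grey bars are the robust SD of the 1000 probe sets nearest in signal and dashed lines mark 1.5-fold. A single Klf3 point, at -0.63, lies beyond a dashed line.

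Stretches upstream of 3 KLF genes were searched for the sequence class that the family itself recognises. They are shown for Klf3, the gene with the probe set past 1.5-fold, for Klf2, nearest to the threshold by its brightest probe set, and for Klf6, whose ratios were above 0 on 4 of 5 probe sets. Klf2 and Klf6 were picked with their values known. The 250 bases before the start of each gene were taken from RefSeq promoters of build GRCm38.p6, on the plus strand in these 3 cases. Capitals mark the KLF motif CACCC, the GC box GGGCGG and the cyclic AMP response core TGACG on either strand, so their reverse complements are in capitals too, and motifs may overlap. A CArG box, the element bound by serum response factor, was searched for as well.

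Klf3, chr5:64803271-64803520: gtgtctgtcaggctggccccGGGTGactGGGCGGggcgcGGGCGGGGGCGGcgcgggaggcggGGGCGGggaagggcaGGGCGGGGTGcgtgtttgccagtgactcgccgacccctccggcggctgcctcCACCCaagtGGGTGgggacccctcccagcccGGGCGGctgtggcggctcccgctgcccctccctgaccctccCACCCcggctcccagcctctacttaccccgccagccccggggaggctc
Klf2, chr8:72318812-72319061: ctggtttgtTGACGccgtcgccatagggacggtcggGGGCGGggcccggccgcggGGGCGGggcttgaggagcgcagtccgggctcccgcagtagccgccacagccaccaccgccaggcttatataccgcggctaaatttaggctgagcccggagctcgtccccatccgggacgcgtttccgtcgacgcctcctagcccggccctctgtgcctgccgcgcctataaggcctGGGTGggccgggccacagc
Klf6, chr13:5861239-5861488: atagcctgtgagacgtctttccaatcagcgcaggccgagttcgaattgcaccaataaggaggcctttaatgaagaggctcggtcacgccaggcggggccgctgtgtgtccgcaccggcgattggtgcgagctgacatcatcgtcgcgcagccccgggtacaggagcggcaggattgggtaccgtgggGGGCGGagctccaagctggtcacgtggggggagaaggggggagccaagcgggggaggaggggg

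The Klf3 stretch held 5 CACCC and 6 GGGCGG matches, the Klf2 stretch 1 and 2, and the Klf6 stretch 0 and 1. An upstream stretch was matched for 8 of the 10 genes, Klf5 and Klf10 being the others. GGGCGG was present in 7 of the 8, and in 32.7% of all 32851 stretches of the same length. CACCC was present in 6 of 8, against 52.0% of all, and TGACG in 5 of 8, against 17.8%. A CArG box was in none of the 8 and in 1.47% of all. The KLF stretches were rich in G and C, with a median of 71.4%, against 52.4% for all. Whether the motif counts go beyond that composition was not tested, and a match describes letters, not binding.

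Klf2, an activator known from blood vessel lining and T cells, had the lowest ratio of the brightest KLF probe sets. Its single probe set (1448890_at) measured 344 with CHX+Nell-1 and 512 with CHX+PBS. It was 1.49-fold lower with Nell-1, just short of the threshold, and the log2 ratio of -0.58 was 1.74 times the robust SD of similarly bright probe sets (0.33). It lay at percentile 4.50 of the 1000 probe sets nearest in signal. No second probe set carried the symbol Klf2 alone.

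Klf4, a regulator of differentiation and one of the reprogramming factors, was nearly equal on the arrays. Its brighter probe set (1417394_at) measured 3318 with CHX+Nell-1 and 3271 with CHX+PBS, a log2 ratio of 0.02. The other (1417395_at) measured 1503 with CHX+Nell-1 and 1510 with CHX+PBS, a log2 ratio of -0.01. Both ratios were well inside the robust SD at their signal, 0.23 and 0.28.

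Klf5, an activator linked to proliferation and to cartilage matrix degradation, was above the median signal on 1 of its 3 probe sets. That one (1451021_a_at) measured 317 with CHX+Nell-1 and 399 with CHX+PBS, 1.26-fold lower, and its log2 ratio of -0.33 was within the robust SD of 0.34. The dimmer pair went the other way. Probe set 1451739_at measured 72.9 with CHX+Nell-1 and 43.4 with CHX+PBS, and probe set 1430255_at measured 26.0 with CHX+Nell-1 and 8.50 with CHX+PBS. Both were dimmer than the median, and 66.7% of all such dim probe sets passed 1.5-fold.

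Klf6, a widely expressed activator and early response gene, had ratios above 0 on 4 of 5 probe sets, all of them above the median signal. Its brightest (1427742_a_at) measured 2237 with CHX+Nell-1 and 2141 with CHX+PBS, a log2 ratio of 0.06. The second (1433508_at), nearly as bright, measured 2438 with CHX+Nell-1 and 1746 with CHX+PBS, 1.40-fold higher, and its log2 ratio of 0.48 was 1.96 times the robust SD at that signal. This was the highest percentile of any KLF probe set, 96.3 among the 1000 nearest. The third (1447448_s_at) measured 1252 with CHX+Nell-1 and 955 with CHX+PBS, and the fourth (1418280_at) 545 with CHX+Nell-1 and 443 with CHX+PBS. Their log2 ratios were 0.39 and 0.30. The dimmest (1459718_x_at) measured 274 with CHX+Nell-1 and 329 with CHX+PBS, a log2 ratio of -0.26. The annotation lists the third and the dimmest under the same accession, and both are of types that can cross-hybridise. The 5 ratios spanned a range of 0.74 on the log2 scale. Of 176 genes with 5 probe sets above the median signal, 30.7% had all 5 ratios on one side of 0, and Klf6 did not. No such share was computed for 4 of 5.

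Klf7, an activator known from neurons and fat cells, was read by 4 probe sets, each above the median signal. The brightest (1419354_at) measured 817 with CHX+Nell-1 and 646 with CHX+PBS, a log2 ratio of 0.34 and 1.10 times the robust SD. The second (1449439_at) was nearly equal, at 480 with CHX+Nell-1 and 481 with CHX+PBS. The remaining 2 were higher with Nell-1 without reaching 1.5-fold. Probe set 1419356_at measured 246 with CHX+Nell-1 and 223 with CHX+PBS, and probe set 1419355_at 164 with CHX+Nell-1 and 116 with CHX+PBS. The 4 ratios ran from -0.00 to 0.49 although the annotation lists all 4 under the same accession.

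Klf3, the CtBP-dependent repressor, was lower with Nell-1 on 5 of the 6 probe sets that exceeded the median signal, out of 7 in all. The brightest (1454666_at) measured 2479 with CHX+Nell-1 and 3195 with CHX+PBS, 1.29-fold lower. The second (1421604_a_at) measured 985 with CHX+Nell-1 and 1280 with CHX+PBS, 1.30-fold lower. Their log2 ratios of -0.37 and -0.38 were 1.44 and 1.39 times the robust SD at their signal, at percentiles 7.30 and 8.40. The next probe sets in brightness differed less. Probe set 1429360_at measured 943 with CHX+Nell-1 and 1077 with CHX+PBS, and probe set 1431630_a_at 636 with CHX+Nell-1 and 693 with CHX+PBS. The least bright of the 6 disagreed. Probe set 1442920_at measured 107 with CHX+Nell-1 and 166 with CHX+PBS, 1.55-fold lower and the only one of the 27 past the threshold. At that signal 25.5% of the nearest probe sets passed too. Probe set 1441200_at measured 134 with CHX+Nell-1 and 111 with CHX+PBS. The seventh, 1458487_at, was below the median signal, at 27.3 with CHX+Nell-1 and 78.7 with CHX+PBS. Of 73 genes with 6 probe sets above the median signal, 16.4% had all 6 ratios on one side of 0, and Klf3 did not. No such share was computed for 5 of 6.

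Klf9, induced by thyroid hormone and glucocorticoids in other tissues, had ratios above 0, from 0.02 to 0.33, on each of its 5 brighter probe sets. The brightest (1428288_at) measured 1140 with CHX+Nell-1 and 1123 with CHX+PBS, and the second (1456341_a_at) 1049 with CHX+Nell-1 and 869 with CHX+PBS. All 5 ratios were within the robust SD at their signal. Of 176 genes with 5 probe sets above the median signal, 30.7% had all 5 ratios on one side of 0. The remaining 3 of these probe sets (1428289_at, 1422264_s_at and 1436763_a_at) measured 591, 264 and 231 with CHX+Nell-1, against 561, 214 and 185 with CHX+PBS. Below the median signal, probe set 1436952_at measured 43.1 with CHX+Nell-1 and 73.5 with CHX+PBS, and probe set 1452723_at 8.56 with CHX+Nell-1 and 12.8 with CHX+PBS. These dim probe sets gave ratios below 0.

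Klf10, first described as a TGF-beta inducible early gene, had the highest ratio of the brightest KLF probe sets. Its single probe set (1416029_at) measured 3248 with CHX+Nell-1 and 2341 with CHX+PBS. The log2 ratio of 0.47 was 1.85 times the robust SD of 0.26 and lay at percentile 94.9. Only 2.80% of the 1000 nearest probe sets passed 1.5-fold in either direction, and Klf10 was not among them.

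Klf13, a factor known from T cells, had 2 probe sets above the median signal, both with ratios below 0. The brighter (1436316_at) measured 992 with CHX+Nell-1 and 1223 with CHX+PBS, a log2 ratio of -0.30 and 1.12 times the robust SD. The other (1432543_a_at) measured 615 with CHX+Nell-1 and 658 with CHX+PBS, a log2 ratio of -0.10. Of 3109 genes with 2 probe sets above the median signal, 66.7% had both on one side of 0. The third (1456030_at) was at 4.76 with CHX+Nell-1 and 9.01 with CHX+PBS.

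Klf15 was not measured above the level of silent genes. Its probe set (1448181_at) was at 18.5 with CHX+Nell-1 and 22.2 with CHX+PBS. The 44 probe sets of olfactory receptor genes, taken as silent in these cells, had a median mean signal of 23.2, and 24 of them were brighter than Klf15. At this signal the robust SD was 2.03, so the log2 ratio of -0.26 carries no direction.

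**Figure D2:**
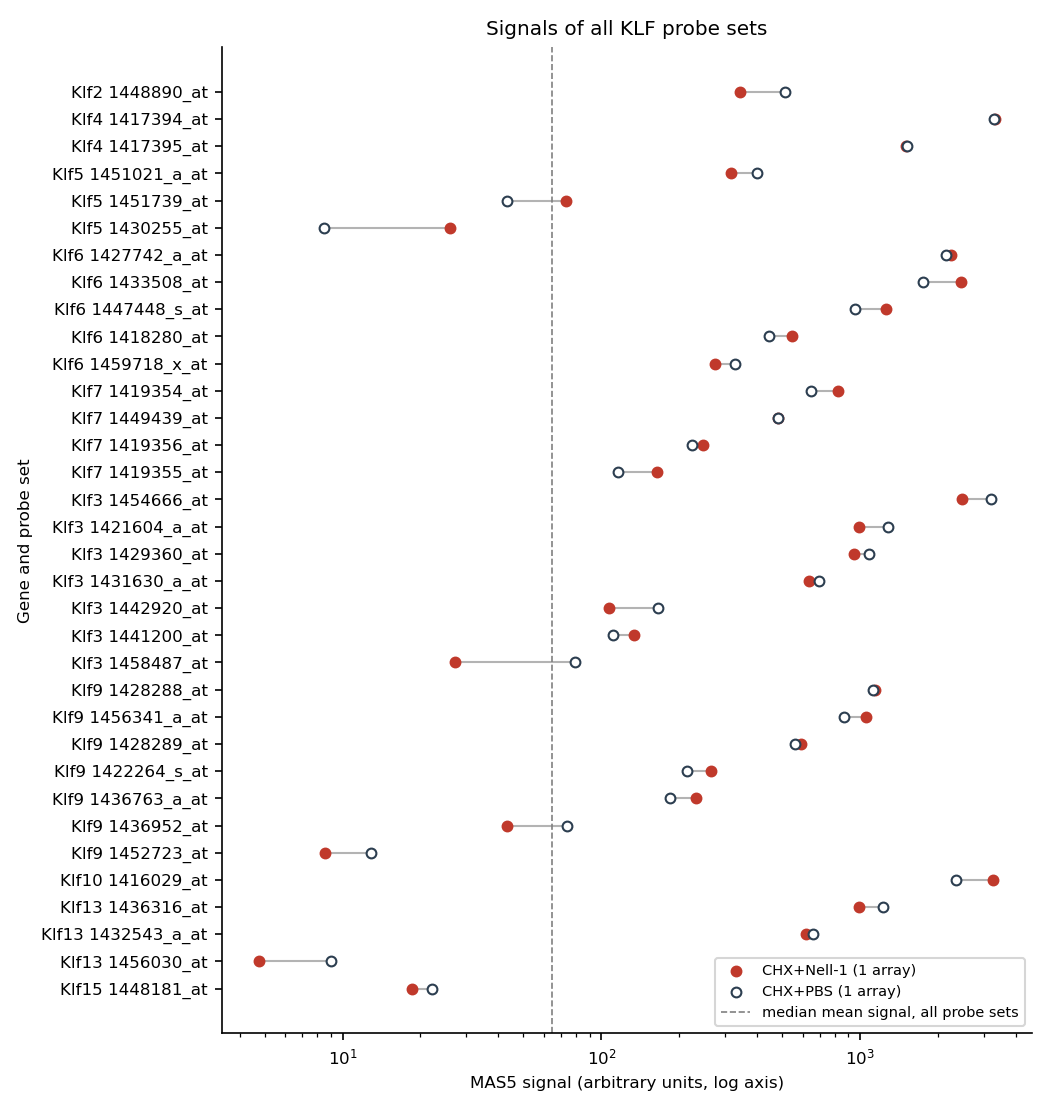
MAS5 signals (horizontal log axis, arbitrary units) of all 34 KLF probe sets, in gene order and by brightness within a gene. Filled points are the CHX+Nell-1 array and open points the CHX+PBS array, joined by a line, with the median mean signal of 64.3 dashed. The pairs of Klf4 points overlap, and the widest gaps belong to probe sets near or below the dashed line.

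The 5 largest KLF ratios came from dim probe sets. Of the 7 below the median signal, 2 were at least 1.5-fold higher and 3 at least 1.5-fold lower, in Klf5, Klf3, Klf9 and Klf13. Of all dim probe sets, 29.1% were higher and 37.6% lower by that much. For Klf5 and Klf9 they ran opposite to the brightest probe set of the same gene. Over all 34, percentiles among the probe sets nearest in signal ran from 4.50 for Klf2 to 96.3 for the second Klf6 probe set.

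**Figure D3:**
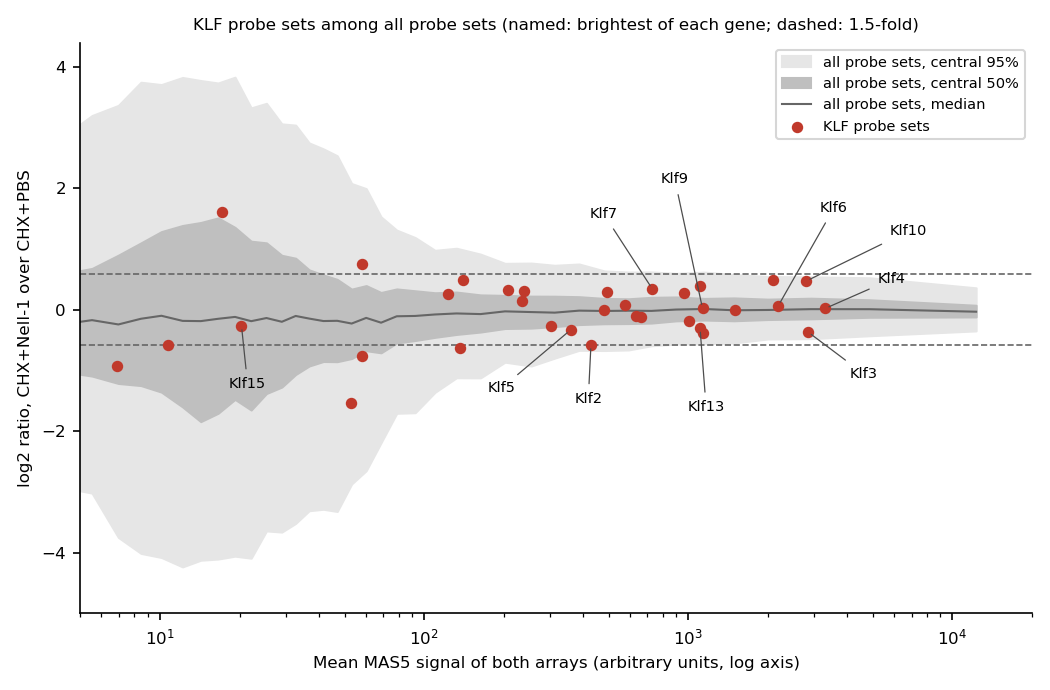
Log2 ratio (vertical axis, CHX+Nell-1 over CHX+PBS) against mean MAS5 signal of both arrays (horizontal log axis) for the 34 KLF probe sets, over the central 50% and 95% of all probe sets. The brightest probe set of each gene is named and dashed lines mark 1.5-fold. The KLF points lie inside the wide band at every signal.

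Scaling moved the brightest KLF ratios by less than their robust SD. Under median centring, a repeated trimmed mean, removal of a loess trend and quantile normalization, 25 of the 27 ratios above the median signal kept their sign. The exceptions were the second probe sets of Klf4 and Klf7, whose ratios were -0.01 and -0.00 as deposited. The repeated trimmed mean could only return the deposited ratios, since both arrays already had a trimmed mean of 500.0. Median centring shifted every ratio by the same amount. Across these 4 scalings Klf2 ran from -0.58 to -0.52, Klf10 from 0.46 to 0.53 and Klf3 from -0.38 to -0.31. None of these brightest ratios reached 1.5-fold under any of them. At 2-fold, 0 of the 27 probe sets passed, against 4.04% of all probe sets above the median signal. Of the 24 KLF probe sets with a mean signal of at least 200, 0 passed 1.5-fold, against 6.6% of all such probe sets. With no limit on signal, 6 of 34 (17.6%) passed, against 40.6% of all. Fewer of the KLF probe sets were dim, and among the probe sets nearest in signal to each of the 34 the share was 20.5% on average, close to theirs.

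**Figure D4:**
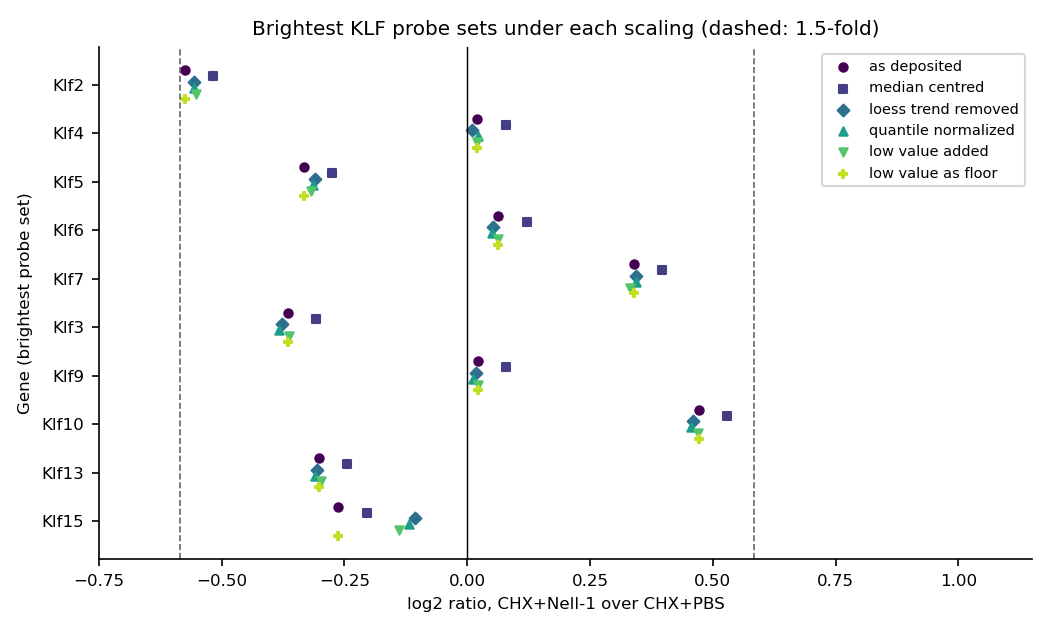
Log2 ratio (horizontal axis, CHX+Nell-1 over CHX+PBS) of the brightest probe set of each KLF gene with signals as deposited and under 5 other treatments of the signals, with dashed lines at 1.5-fold. Each gene's points stay on one side of 0, and none crosses a dashed line.

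Genes that work with the KLF factors were described from lists, each gene by its brightest probe set. Over all genes above the median signal, 4.56% were at least 1.5-fold higher and 7.53% lower, and the median log2 ratio was -0.03. The other KLF genes had 6 measured of 7, with Klf8 not analysed here, and of the 4 above the median signal 1 was higher and 1 lower. Klf12 and Klf14 were dim. Klf11, the close relative of Klf10, measured 282 with CHX+Nell-1 and 174 with CHX+PBS, 1.62-fold higher. Klf17, known from oocytes and early embryos, measured 67.3 with CHX+Nell-1 and 116 with CHX+PBS, 1.72-fold lower, at a mean signal not far above the median. The log2 ratio was -0.14 for Klf16 and -0.03 for Klf1, the erythroid founder of the family. The median log2 ratio of the 4 was -0.08.

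SP factors, which share the zinc-finger type and bind GC boxes, had 7 of 9 measured and 4 above the median signal, with a median log2 ratio of 0.20. The ratio was 0.24 for Sp1, 0.16 for Sp3 and 0.45 for Sp7, the osteoblast factor osterix. For Sp1, the other 2 probe sets above the median signal disagreed, with log2 ratios of 0.13 and -0.45. Sp6 was the one past 1.5-fold, at 79.4 with CHX+Nell-1 and 192 with CHX+PBS, 2.42-fold lower. The cofactors and ubiquitin ligases of KLF proteins were all 12 above the median signal, and 0 passed 1.5-fold, with a median log2 ratio of 0.03. Among them, the corepressor Ctbp1 measured 10376 with CHX+Nell-1 and 11018 with CHX+PBS.

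Routes that lead to KLF transcription held 4 genes past the threshold among 13, each by its brightest probe set. The share over all genes above the median signal was 12.1%. The calls for Mef2c and Elk4 carry limits given below, and whether the routes differ from that share was not tested. In the ERK5 and MEF2 route, which induces Klf2 and Klf4 in endothelial cells, 1 of 7 was higher and 2 lower, with a median log2 ratio of -0.29. Mapk7, encoding the kinase ERK5, measured 164 with CHX+Nell-1 and 284 with CHX+PBS, 1.73-fold lower. Mef2c measured 55.5 with CHX+Nell-1 and 101 with CHX+PBS, 1.82-fold lower, and was above the median of 64.3 on the CHX+PBS array alone, so it passed the filter through the array where it was high. Map3k2, an upstream kinase, measured 221 with CHX+Nell-1 and 145 with CHX+PBS, 1.52-fold higher. The 6 genes of the serum response factor route had a median log2 ratio of -0.16. Elk4, an ETS partner of serum response factor, was 1.53-fold higher by its brightest reading, at 1313 with CHX+Nell-1 and 858 with CHX+PBS, but its second probe set was past the threshold in the other direction, with a log2 ratio of -0.72. Mrtfb, a coactivator of serum response factor, had a log2 ratio of -0.07 on its brightest probe set (1435547_at). Its next (1428028_at) measured 113 with CHX+Nell-1 and 15.8 with CHX+PBS, a log2 ratio of 2.84, and reached the median signal by its CHX+Nell-1 array alone. Srf itself had log2 ratios of -0.30 and -0.45.

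Reported KLF target genes had 13 of 14 measured, 11 of them above the median signal, with 2 higher, 1 lower and a median log2 ratio of -0.21. Translation was blocked in both groups and KLF proteins were not measured, so whether these ratios follow from KLF action was not tested. Cdkn1a, the cell-cycle inhibitor p21, measured 770 with CHX+Nell-1 and 408 with CHX+PBS, 1.89-fold higher, while its second probe set had a log2 ratio of 0.01. Slc2a4, the insulin-regulated glucose transporter, measured 101 with CHX+Nell-1 and 45.8 with CHX+PBS, 2.21-fold higher, and was above the median on the CHX+Nell-1 array alone, so it likewise passed the filter through its high array. Smad7, which inhibits TGF-beta signalling and is repressed by KLF10, measured 724 with CHX+Nell-1 and 1551 with CHX+PBS, 2.14-fold lower, on a probe set of the type that can cross-hybridise (1443771_x_at). Its plain probe set (1423389_at), nearly as bright, measured 1148 with CHX+Nell-1 and 997 with CHX+PBS, a log2 ratio of 0.20. For Cdkn1a and Smad7 the call therefore rests on 1 of 2 probe sets. Eng, encoding the TGF-beta coreceptor endoglin, had a log2 ratio of -0.21 on its brightest probe set and -0.94 on another. Col1a1, a major collagen gene, had a log2 ratio of -0.24.

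**Figure D5:**
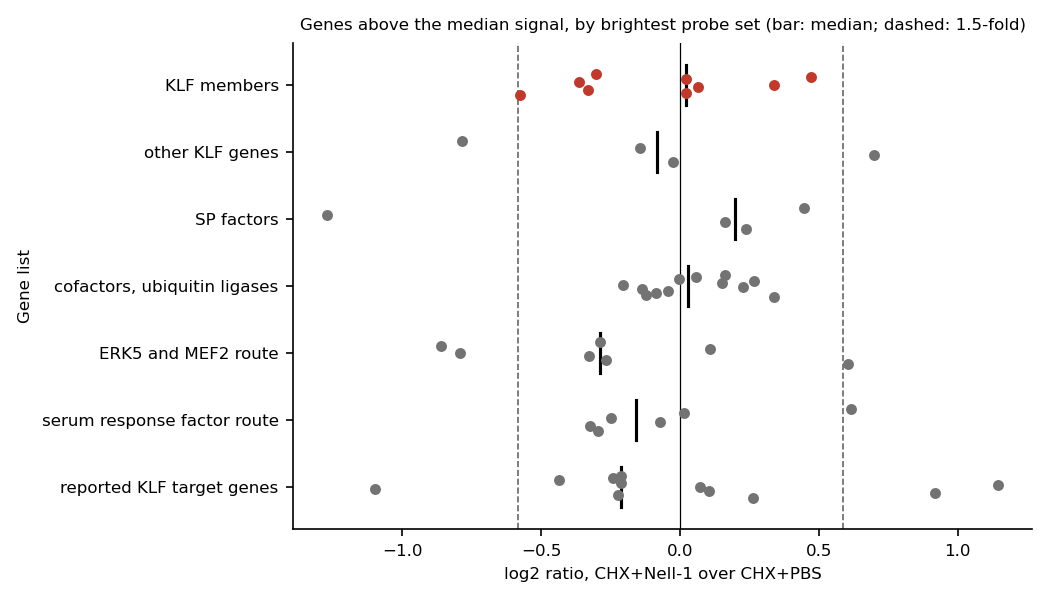
Log2 ratios (horizontal axis, CHX+Nell-1 over CHX+PBS) of genes above the median signal, each by its brightest probe set, for the KLF members and 6 related lists. Each point is a gene, the black bar is the list's median and dashed lines mark 1.5-fold. The 9 KLF members and the 12 cofactors stay between the dashed lines, and each of the other lists has at least 1 gene beyond them.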

How the data were processed

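Biotin-labelled total RNA was read on 1 Affymetrix mouse expression array per group. The values deposited by the authors are intensities, linear MAS5 signals per probe set, made with Affymetrix Expression Console per the submitters' processing notes. No version is given in the sources used here. The 2% trimmed mean was 500.0 on both arrays. Of 45101 probe sets, 64 were controls. Of the other 45037, the platform annotation gave 34945 exactly 1 symbol, 932 several and 9160 none. Columns were matched to samples by name. Older symbols in the lists were matched through a RefSeq table of GRCm38.p6. Log2 ratios, the counts past 1.5-fold and a robust SD scaled from the median absolute deviation were computed with numpy 2.4.6 and pandas 2.3.3, and the loess trend with statsmodels 0.14.6 (span 0.3). The low signal value is 17.9, the 25th percentile of the mean signal. The code was tested on simulated data. Detection calls were not used. The number of arrays limits the precision. All probe sets of the 10 genes are named. Of each related list, members above the median signal past 1.5-fold are named, others, and probe sets other than the brightest, as examples chosen after their values were seen. The members and lists were chosen with earlier results of these data known.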

Additional observations from a re-analysis of the deposited data

How the results depend on the processing

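The count of KLF probe sets past 1.5-fold was 1 with signals as deposited. It was 0 under median centring, loess, quantile normalization and an added low signal value of 17.9, and also at 2-fold or with a mean signal of at least 200. Without a filter on dim probe sets it was 6, with 2 higher and 4 lower. No KLF gene passed on its brightest probe set, except that 1 did, Klf5, when only probe sets of the plain type were allowed, through a probe set below the median signal. The median over the KLF genes ran from -0.12 to 0.02, and it was above 0 only for the mean over probe sets (0.01) and the plain type (0.02). That mean used probe sets above the median signal alone, so it left out Klf15 and covered 9 genes. By brightest probe set with signals as deposited, the same 9 genes had a median of 0.02. All 204 ratios of single probe sets under 6 other treatments of the signals stayed within 1 robust SD of the deposited ratio. That count is a weak check. The repeated trimmed mean left the ratios as deposited, and the low value as floor left those above the median signal unchanged. For dim probe sets the robust SD is wide. Klf5 probe set 1430255_at went from 1.61 to 0.54 with that floor, within its robust SD of 2.28. No paired analysis was possible because neither group has a second array, and for that reason no replicate was left out. Below the median signal, ratios are too unstable to read.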
